A study of Mus musculus with 4 samples.

Results

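The 465 cells described here were intermediate erythroblasts in the spleens of allo-HCT recipients that carried a myeloid leukemia. They were chosen by measured values of each cell. A cell had to hold at least 500 genes, at least 1000 UMIs (unique molecular identifiers, each standing for 1 captured RNA molecule) in genes and at most 10% mitochondrial UMIs, no UMI of Cd3d, Cd3e or Cd3g, at least 2 UMIs of Klf1, and between 1% and 20% of its UMIs in the adult globin genes Hba-a1, Hba-a2, Hbb-bs and Hbb-bt. They made up 4.0% of the 11632 cells that passed the quality limits, out of 15784 barcodes in all, and 10.9% of the 4256 such cells without a Cd3 UMI. They are set against 1749 early erythroid cells, which met the same demands with a hemoglobin share under 1%, and 865 late erythroid cells, which passed the quality limits, had no Cd3 UMI and a share of 20% or more and were not required to hold Klf1. A further 970 barcodes with a share of 20% or more failed the quality limits, against 3 that otherwise met the demands for members. The late cells are thus the part of such barcodes with enough RNA to be kept.

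The study used single-cell RNA-Seq to compare donor Tc with and without the inhibitory receptor TIM-3, which Havcr2 encodes. BALB/c recipients were lethally irradiated and given 10000 WEHI-3B cells, a myelomonocytic leukemia line of BALB/c origin, with allogeneic BM, and 200000 donor Tc followed on day 2. Spleens were taken on day 23, and there was 1 library per mouse. In 2 mice the BM and Tc came from Havcr2fl/fl donors, whose Havcr2 carries loxP sites and stays intact, and in the other 2 from Havcr2fl/fl;E8icre/+ donors, in which a Cre driven by the E8i enhancer of Cd8a deletes it in CD8+ cells. Both groups thus carried the floxed allele, and E8i-driven Cre is a model of loss in CD8+ Tc and not in erythroid cells. The ages of these mice are not in the labels. The labels name the cells as Tc isolated from spleen with a pan-T kit, and the study's text speaks of sorted donor Tc, so the number of erythroid cells in a library also depends on that enrichment and is not a count for the spleen.

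Erythroblasts are the nucleated precursors of red cells. They arise from progenitors that depend on the receptor tyrosine kinase Kit and then on erythropoietin, divide several times while they become smaller, load with hemoglobin and iron, condense the nucleus and expel it. Klf1 and Gata1 are the transcription factors that switch on globin, heme and membrane genes along this path, and in mice the spleen is a main site of erythropoiesis under stress, such as recovery from irradiation. Hemoglobin share orders cells along this path but also depends on how much other RNA a cell still holds.

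The 4 libraries held 38386626 and 31449644 gene UMIs (Havcr2fl/fl;E8icre/+ replicates 1 and 2) and 17693991 and 55045903 gene UMIs (Havcr2fl/fl replicates 1 and 2), and values for 4 libraries are given in this order from here on. The intermediate erythroblasts numbered 35, 34, 15 and 381. Havcr2fl/fl replicate 2 therefore held 81.9% of them, and Havcr2fl/fl replicate 1 held too few to lend a summed profile to the fit across stages, which asked for at least 20 cells. Early cells numbered 348, 158, 61 and 1182, and late cells 174, 241, 120 and 330. The UMIs summed over intermediate erythroblasts came to 710322, 694056, 464728 and 5377705. Of all cells that passed the limits, 17 barcodes occurred in a pair of libraries, and 0 of the intermediate erythroblasts did.

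Havcr2fl/fl replicate 2 also stood apart in what its intermediate erythroblasts were. Their median hemoglobin share was 3.20%, against 8.14%, 10.3% and 5.32% in the other libraries. Their median depth was 12923 UMIs, against 15706, 15142.5 and 26394. Within its 381 cells several progenitor genes lay far below the other 3 libraries, which is shown with those genes. A second difference concerned neutrophil RNA: the 6 neutrophil markers summed to 413, 5663, 11117 and 387 CPM, so that Havcr2fl/fl;E8icre/+ replicate 2 and Havcr2fl/fl replicate 1 were high. Those UMIs came from 6, 6, 8 and 44 cells, S100a8 or S100a9 was the most abundant of the markers in each library, and their part in the results was not tested. CPM is here the UMIs of a gene, scaled to 1000000 UMIs of all genes outside the 8 that chose the cells, summed over the cells of 1 stage in 1 library.

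**Figure D1:**
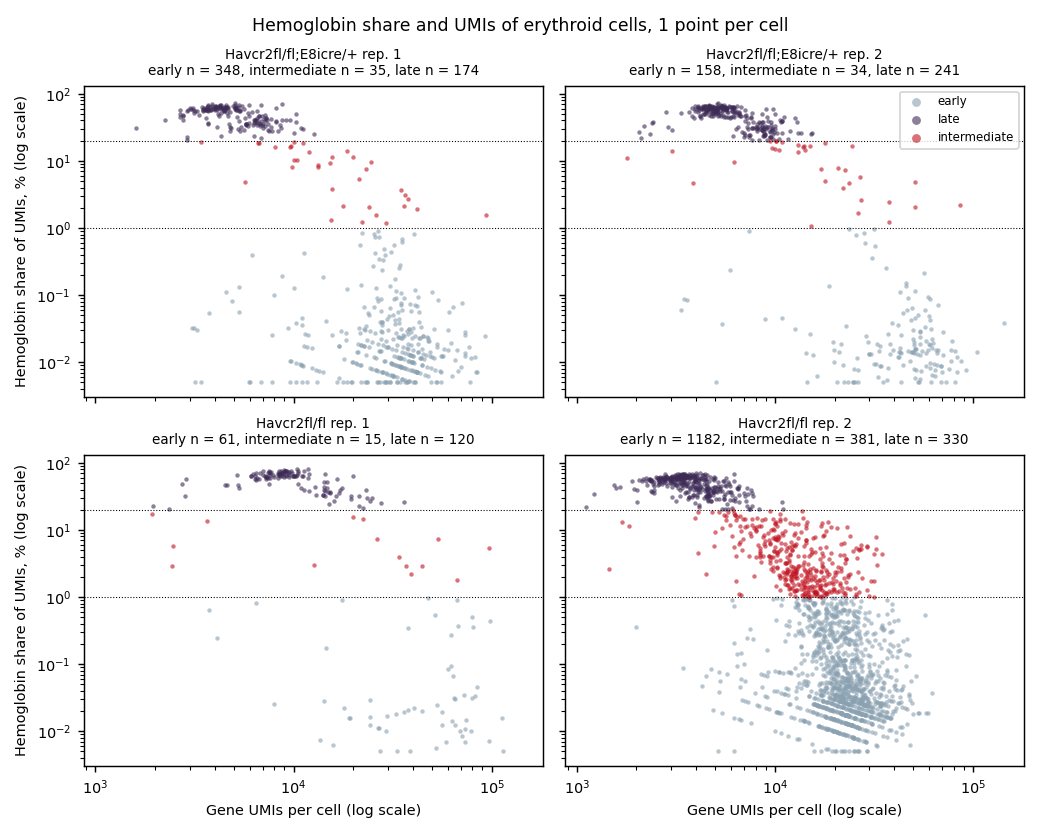
Hemoglobin share of gene UMIs (percent, log axis) against gene UMIs per cell (log axis) for erythroid cells of the 4 libraries, 1 panel each, with the limits of 1% and 20% as dotted lines. The band between the lines holds 35, 34, 15 and 381 cells, and in Havcr2fl/fl replicate 2 they crowd toward its lower edge (median share 3.20%).

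The identity of the cells was checked with genes that the rule did not use for the choice and with the donor tag. Hemgn, a nuclear protein of erythroid cells (chr4:46393989-46413506, minus strand, GRCm38), had a UMI in 94.3, 94.1, 93.3 and 99.5% of intermediate erythroblasts, against 0.762, 0.662, 0.484 and 3.37% of Tc, defined as cells with a Cd3 UMI, no Klf1 UMI and under 1% hemoglobin. Mgst3, a microsomal glutathione transferase (chr1:167371966-167393841, minus strand), had one in 94.3, 88.2, 86.7 and 98.2% against 1.65, 2.04, 4.12 and 2.60%. Hist1h2ab, a replication-dependent histone gene (chr13:23751126-23751598, plus strand), was less selective, with 80.0, 94.1, 66.7 and 76.4% against 9.91, 8.39, 7.99 and 10.8% of Tc. Intermediate erythroblasts were deeper than Tc, whose median depth was 4385 UMIs in Havcr2fl/fl;E8icre/+ replicate 1. Hemgn, Mgst3 and Hist1h2ab were named with the rule from earlier results of these data and are described without a test between stages, although they also count in the lists they belong to and stand in the comparison of genotypes.

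T cell genes were low in the members. The 10 T cell markers outside the rule summed to 20.9, 23.4, 11.4 and 11.9 CPM, and 5, 3, 8 and 2 of them were at 0. A UMI of the list was present in 11 of 35, 11 of 34, 2 of 15 and 55 of 381 members. Lck or Trbc2 was the most abundant, and Lck, a kinase of T cell receptor signalling, was the 1 marker of the list tested between stages. It had 0.331 to 1.62 CPM in early cells, 8.97, 6.23, 9.10 and 5.25 CPM in members and 24.4, 6.77, 15.6 and 16.9 CPM in late cells and was called higher at both steps (2.21 ± 0.49, SE, adjusted p = 0.00241, then 2.00 ± 0.51, SE, adjusted p = 0.00345). The part of RNA from Tc in other results was not tested. An oligonucleotide-tagged Ab to H-2Kb, the MHC class I molecule of the donor haplotype, gave a median of 3171, 2987.5, 4572 and 2223 tag UMIs per intermediate erythroblast. All cells with a Cd3 UMI had medians of 1625, 1990, 2422 and 1287.5, below the intermediate erythroblasts in each library, but those cells were shallower, at medians of 4593, 5851.5, 6642 and 3111 UMIs. Per 1000 gene UMIs the order turned, with median tag UMIs of 214, 194, 199 and 164 in intermediate erythroblasts and 327, 316, 337 and 366 in cells with a Cd3 UMI. Of the 465 cells, 0 fell short of the median log2 tag count of all cells kept in their library by over 3 scaled median absolute deviations, and the lowest values were 261, 1094, 967 and 263 tag UMIs. That cut took no account of depth, which was higher in members than in Tc, and 15 late cells fell short of it. The data held no cells known to lack H-2Kb, so the tag sets these cells beside the other cells of their library and gives no absolute limit.

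The limits of the rule cut through a continuous range. The lowest hemoglobin share among members was 1.00% and the highest among early cells 0.995%. There were 79 members between 1% and 1.5% and 137 early cells between 0.5% and 1%. At the upper limit 39 members lay from 15% to 20%, and 46 late cells from 20% to 25%. A further 66 cells met every demand but held a Cd3 UMI, and 40 and 37 cells had the hemoglobin share of members with 0 and 1 Klf1 UMIs. Of all cells with a Cd3 UMI, 2.30%, 2.26%, 3.67% and 4.09% had a hemoglobin share of at least 1%, and these include the 66 cells.

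By the measures that set the stages, the members held a median of 5, 8.5, 7 and 6 Klf1 UMIs and 1151, 1548, 1211 and 406 globin UMIs per cell. Hbb-bs gave 44.1% to 50.2% of the globin UMIs of the members and Hbb-bt 17.7% to 21.6%, although both adult beta chains, like both alpha chains, are so alike that reads can be assigned to the wrong copy. The share of Hbb-bt was 28.3% to 35.3% in early and 12% to 14.1% in late cells, so that members lay between them in every library. The embryonic genes Hbb-y and Hbb-bh1 had at most 3 and 2 UMIs per library in the members. Hbq1b, a theta-type globin that the rule did not use, had 23.9, 62.3, 13.6 and 27.2 CPM in members, against 0 to 1.51 CPM in early and 364 to 430.1 CPM in late cells. It was the only other globin gene with enough UMIs to test, and it was higher in intermediate than early cells by 5.12 ± 0.43 (SE, adjusted p = 5.22e-07) on the log2 scale and in late than intermediate cells by 4.22 ± 0.32 (SE, adjusted p = 3.4e-08). Ahsp, the chaperone of free alpha chains, was not analysed here.

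Depth fell along the stages. Median UMIs per cell were 32496.5, 47722.5, 52372 and 22187 in early cells, 15706, 15142.5, 26394 and 12923 in intermediate erythroblasts, and 4907.5, 5829, 9205 and 3717 in late cells. The order was the same in every library. The median number of genes detected went from 5451, 5915.5, 6069 and 4451.5 in early cells to 3677, 2988, 4070 and 3213 in intermediate erythroblasts. Differences below are therefore differences in the share of a cell's RNA and not in molecules per cell.

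Against this background the question for each gene was where its level changed along the path. UMIs were summed per library and stage, the 8 rule genes were left out, and the stages were compared within libraries with edgeR. Of 7450 genes tested, 1771 (23.8%) were higher and 1418 (19.0%) lower in intermediate than in early cells at an adjusted p under 0.05. Which direction had more calls depended on the setting, with 1523 higher and 1799 lower with DESeq2 size factors, 1545 and 1916 with a minimum of 10 cells per sum in place of 20, and 1474 and 1621 with a stricter cell filter (at least 1000 genes and at most 5% mitochondrial UMIs). From intermediate to late cells 2181 (29.3%) were higher and 2745 (36.8%) lower. The median log2 difference over all genes was -0.01 for the first step and -0.26 for the second, and each list below is to be read against these shares and medians. Both steps use the same intermediate sums, so their values are placed side by side and not compared by a test. Intermediate sums of 3 libraries entered the fit, while the levels printed come from all 4 without its scaling factors. Without Havcr2fl/fl replicate 2, which gives most members, 1114 genes were higher and 493 lower of 7340 at the first step, and where this moved a list it is stated. Counts of a list under another setting are to be read against all genes in that setting. With cells thinned to 2000 UMIs these were 789 higher and 693 lower of 4708 at the first step, and 1087 and 1149 at the second. Without a block for the library they were 1493 and 1069 of 7450, then 2072 and 2612. DESeq2 called 1410 higher and 1155 lower of 7450 at the first step.

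**Figure D2:**
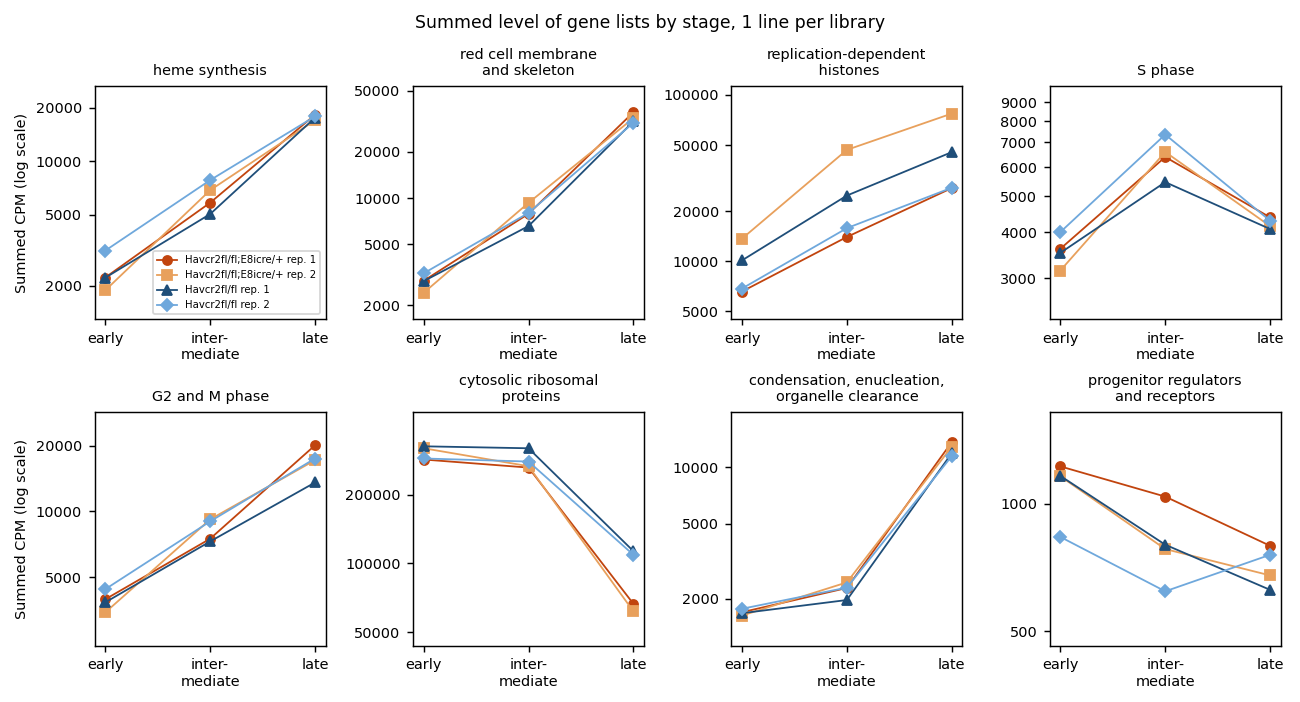
Summed CPM (log axis) of 8 gene lists in early, intermediate and late cells, 1 line per library. In all 4 libraries the heme and membrane sums climb through the 3 stages, while the ribosomal sum of the members (262733, 266397, 319160 and 279204 CPM) lies far above that of late cells.

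Heme synthesis genes were all higher in intermediate erythroblasts. All 11 enzymes and carriers of the list passed the test upward, with a median log2 difference of 1.66, and the same 11 of 11 did so without Havcr2fl/fl replicate 2. Alas2, the erythroid enzyme that makes the first committed step of heme synthesis (chrX:150547375-150570638, plus strand), had 3.32, 4.18, 9.26 and 8.94 CPM in early cells. It had 369, 497, 286 and 272 CPM in intermediate erythroblasts and 3784, 3667, 3983 and 3329.9 CPM in late cells. The 3 stages did not overlap, and the differences were 6.07 ± 0.33 (SE, adjusted p = 1.09e-08) for the first step and 3.77 ± 0.31 (SE, adjusted p = 8.17e-08) for the second. Fech, which inserts iron into the ring, had 99.98, 81.1, 109 and 110.5 CPM in early cells and 420.1, 481, 359 and 358 CPM in members, a difference of 2.19 ± 0.18 (SE, adjusted p = 3.53e-07). Slc25a38, the glycine carrier of mitochondria, was higher by 1.06 ± 0.11 (SE, adjusted p = 4.46e-06), the smallest difference of the list. Tmem14c, a mitochondrial porphyrin carrier, behaved differently at the second step. It had 1481, 1747, 1512 and 2777 CPM in members and 767, 891, 1173 and 1744 CPM in late cells, a fitted difference of -0.27 ± 0.16 (SE, adjusted p = 0.158), whereas the other 10 genes were higher again in late cells.

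The promoters of genes that separate intermediate from early cells are shown with 1 string of letters each that GATA and Klf-type factors are known to bind. The 250 bases before the start of each gene, 5′ to 3′ on the gene's strand, are from RefSeq on GRCm38.p6. Alas2 lies at chrX:150547167-150547416 (plus strand), Epb42 at chr2:121036878-121037127 (minus), Hemgn at chr4:46404184-46404433 (minus) and Mgst3 at chr1:167393842-167394091 (minus). These RefSeq starts are not always the ends of the gene spans given for GRCm38 here: the Hemgn window lies inside the span of its gene, so it precedes another annotated start, and the Alas2 and Epb42 windows run past the first transcribed base of their genes' spans. Capitals mark matches to AGATAA, letters of a GATA factor site, and to CACCC, letters of a Klf-type site, on either strand, so that they can also read TTATCT or GGGTG.
Alas2: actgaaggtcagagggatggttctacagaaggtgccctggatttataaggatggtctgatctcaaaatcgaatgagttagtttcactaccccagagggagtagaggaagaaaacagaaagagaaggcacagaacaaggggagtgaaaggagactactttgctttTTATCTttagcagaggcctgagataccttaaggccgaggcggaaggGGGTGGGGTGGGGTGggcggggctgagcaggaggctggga
Epb42: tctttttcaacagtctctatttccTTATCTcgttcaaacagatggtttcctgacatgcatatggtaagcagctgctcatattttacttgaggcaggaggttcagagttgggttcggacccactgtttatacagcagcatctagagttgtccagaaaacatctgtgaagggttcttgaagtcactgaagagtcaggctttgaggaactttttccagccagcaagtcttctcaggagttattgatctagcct
Hemgn: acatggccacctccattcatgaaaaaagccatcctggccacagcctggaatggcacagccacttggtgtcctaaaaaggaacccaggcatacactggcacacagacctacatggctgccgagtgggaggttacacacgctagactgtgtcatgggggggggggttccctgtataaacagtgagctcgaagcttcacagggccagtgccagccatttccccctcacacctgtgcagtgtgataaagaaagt
Mgst3: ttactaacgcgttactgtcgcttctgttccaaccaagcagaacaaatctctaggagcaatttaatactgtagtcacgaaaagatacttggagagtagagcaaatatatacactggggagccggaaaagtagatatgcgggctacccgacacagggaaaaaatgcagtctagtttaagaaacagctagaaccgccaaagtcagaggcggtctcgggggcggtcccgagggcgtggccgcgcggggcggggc
The Alas2 window held 1 AGATAA match and 3 CACCC matches, which did not overlap, and the Epb42 window held 1 AGATAA match. The Hemgn and Mgst3 windows held neither string, nor did that of Hist1h2ab, which is not printed. Other forms of GATA or Klf-type sites were not searched, so a window without a match can still hold such a site. Of 32851 promoters in the RefSeq table, 9.99% held AGATAA and 52.0% CACCC in a window of this length. Of 7 genes looked up, 5 were matched, with Slc4a1 not among them.

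Iron genes changed in part. Of 16 tested, 8 were higher and 0 lower in intermediate than early cells, with a median log2 difference of 0.34, and with cells thinned to 2000 UMIs 5 of 14 were higher and 1 lower. Tfrc, the transferrin receptor that brings iron into the cell, had 342, 241, 446 and 368 CPM in early cells, 1059.9, 939, 1085 and 898 CPM in members and 2696, 2316, 3595 and 2487 CPM in late cells. The members lay between the other stages without overlap, with differences of 1.73 ± 0.16 (SE, adjusted p = 1.13e-06) and 1.92 ± 0.17 (SE, adjusted p = 1.55e-07). Slc25a37, mitoferrin, which carries iron into mitochondria, differed more, with 31.2, 24.5, 32.1 and 44.5 CPM in early cells and 614, 816, 441 and 499.5 CPM in members, a difference of 4.35 ± 0.25 (SE, adjusted p = 1.63e-08). Ncoa4, which brings ferritin to lysosomes, was at 58.3, 65.4, 68.2 and 47.4 CPM in members and 539.8 to 577 CPM in late cells, so that most of its difference fell in the second step (log2 1.40 and then 3.87). Tfr2, a second transferrin receptor, had a log2 difference of -0.42 ± 0.18 at the first step that did not pass (adjusted p = 0.0776) and was lower in late cells, at -1.51 ± 0.27 (SE, adjusted p = 0.000194). At the second step 9 of the 16 were higher and 4 lower.

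Membrane and skeleton genes were nearly all higher. Of 23 tested, 22 were higher and 0 lower in intermediate erythroblasts, with a median log2 difference of 1.71, and 22 of 23 were higher again in late cells, with a median of 2.19. Slc4a1, the anion exchanger band 3 (chr11:102348824-102366203, minus strand), had 12.4, 11.8, 18.5 and 21.3 CPM in early cells and 946, 1132, 600.3 and 669.6 CPM in members. It reached 6788, 5367, 5304 and 4234 CPM in late cells, with differences of 5.94 ± 0.29 (SE, adjusted p = 8.06e-09) and 3.09 ± 0.27 (SE, adjusted p = 1.78e-07). No library of one stage overlapped those of another. Epb42, protein 4.2, which binds band 3, had 138, 185, 59.1 and 144 CPM in members and a difference of 3.13 ± 0.20 (SE, adjusted p = 2.91e-08). Tmod1, which caps short actin filaments of the red cell skeleton, was higher by 4.89 ± 0.22 (SE, adjusted p = 4.71e-09), and the spectrin gene Sptb and the ankyrin gene Ank1 by 2.39 and 1.49. Tmod3, the tropomodulin of most nucleated cells, was the 1 gene without a call in either step, at -0.53 ± 0.26 in the first (adjusted p = 0.118).

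Enzymes of red cell metabolism and defense against oxidants showed both early and late changes. Of 16 tested, 12 were higher and 0 lower in members, with a median log2 difference of 0.68. Bpgm, which makes the 2,3-bisphosphoglycerate that tunes oxygen release, had 11.0, 11.7, 15.5 and 17.0 CPM in early cells, 106, 176, 132 and 75.8 CPM in members and 1815, 2286, 2225 and 1757 CPM in late cells, with differences of 3.14 ± 0.25 (SE, adjusted p = 2.66e-07) and 4.66 ± 0.26 (SE, adjusted p = 1.77e-09). Prdx2, an abundant red cell peroxidase, was higher by 1.49 ± 0.18 (SE, adjusted p = 1.18e-05), and catalase (Cat) by only 0.44 ± 0.14 before a difference of 3.51 ± 0.15 at the second step. Mgst3 is in this list and went from 60.5, 70.6, 92.0 and 133 CPM in early cells to 463, 757, 509 and 810.4 CPM in members and 977, 1424, 1111 and 1555 CPM in late cells. Carbonic anhydrase 1 (Car1) ran the other way at the end. It had 1691, 1627, 3474 and 1386 CPM in members, with a first difference of -0.28 ± 0.26 that did not pass (adjusted p = 0.406), and was lower in late cells, at -2.58 ± 0.28 (SE, adjusted p = 1.67e-06). Pklr, pyruvate kinase of liver and red cells, followed the same course, with -0.32 ± 0.22 (adjusted p = 0.261) and then -3.75 ± 0.47 (SE, adjusted p = 7.86e-06).

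**Figure D3:**
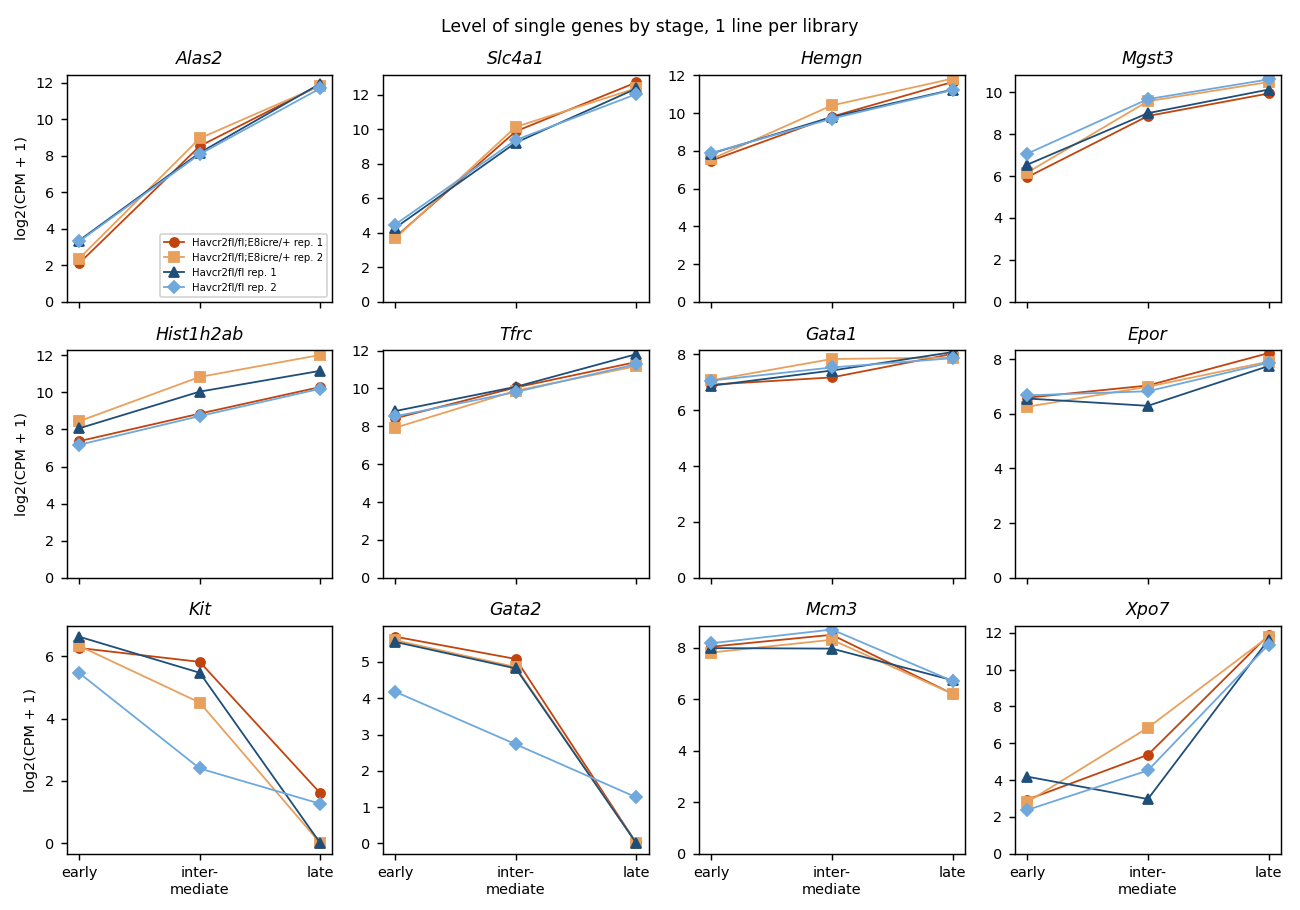
Level, as log2(CPM + 1), of 12 genes in early, intermediate and late cells, 1 line per library. Alas2, Slc4a1, Hemgn and Mgst3 climb in all 4 libraries, Kit and Gata2 fall, Mcm3 is lowest in late cells, and Xpo7 has its larger difference between intermediate and late cells.

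The transcription factors of the lineage were present before this stage, and their differences were smaller than those of Alas2 or Slc4a1. Of 16 factors and cofactors tested, 12 were higher and 1 lower in intermediate erythroblasts, with a median log2 difference of 0.87. Gata1 had 119.9, 133, 116 and 133 CPM in early cells and 144, 227, 171 and 184 CPM in members, so that all 4 members' values lay above the 4 early ones, by 0.66 ± 0.13 (SE, adjusted p = 0.00115). Its second difference was 0.97 ± 0.14 (SE, adjusted p = 3.33e-05). E2f2, a cell cycle factor, had 25.2, 14.3, 28.1 and 24.7 CPM in early cells, 244, 198, 155 and 181 CPM in members and 1162, 651, 894 and 672 CPM in late cells, with the largest first difference of the list, 3.34 ± 0.18 (SE, adjusted p = 9.81e-09). Nfe2, Klf3, Foxo3 and Tal1 were higher by 1.60, 1.59, 1.21 and 1.10 on the log2 scale. Hemgn, chosen with the rule, had 177, 187, 229.6 and 235 CPM in early cells, 894, 1351, 882 and 834 CPM in members and 3205, 3617, 2415 and 2373 CPM in late cells, without overlap. Cbfa2t3, a corepressor found in complexes with Tal1 and Gata1, was the 1 lower gene (-1.18 ± 0.35, SE, adjusted p = 0.0146), and it was not called without Havcr2fl/fl replicate 2, where it had 10.5 CPM against 102, 40.5 and 34.1 CPM elsewhere. Bcl11a, the repressor of embryonic globin genes, had 249.6, 154, 221 and 139 CPM in members and a first difference that did not pass (-0.35 ± 0.34, adjusted p = 0.42), and it was lower in late cells, at -2.13 ± 0.50 (SE, adjusted p = 0.00185).

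Most of the progenitor genes tested were lower in the members, and here the libraries differed in level. Of 9 regulators and receptors tested, 5 were lower and 2 higher, with a median log2 difference of -0.94, and without Havcr2fl/fl replicate 2 these were 4 lower and 2 higher of 10, with a median of -0.48. DESeq2 called 3 of the 9 lower. Kit, the receptor for stem cell factor (chr5:75574916-75656722, plus strand), had 75.7, 79.3, 97.6 and 43.1 CPM in early cells and 55.3, 21.8, 43.2 and 4.27 CPM in members. Every library was lower in members than in early cells, at -1.77 ± 0.38 (SE, adjusted p = 0.00182), but Havcr2fl/fl replicate 2 had less than any other in both stages. A Kit UMI was found in 9 of 35, 3 of 34, 2 of 15 and 13 of 381 members, or 25.7, 8.82, 13.3 and 3.41%, against 74.4, 75.9, 83.6 and 45.7% of early cells and 2.46, 2.10, 2.06 and 1.71% of the shallower Tc. Gata2, the factor that Gata1 replaces during erythroid commitment, had 32.9, 28.0, 27.3 and 5.63 CPM in members, a difference of -0.94 ± 0.25 (SE, adjusted p = 0.00779) that was not called without Havcr2fl/fl replicate 2 (-0.59, adjusted p = 0.147), with DESeq2 (adjusted p = 0.0632), with members from 2% hemoglobin (-0.49, adjusted p = 0.111) or without a block for the library (adjusted p = 0.105). Myb and Myc, which sustain the division of progenitors, had 197, 131, 114 and 30.9 and 117, 49.8, 114 and 31.5 CPM in members, with differences of -1.56 ± 0.30 (SE, adjusted p = 0.000938) and -1.06 ± 0.24 (SE, adjusted p = 0.00251). In all of these Havcr2fl/fl replicate 2 was the lowest library. Itga4, an integrin chain that holds erythroblasts to macrophages of erythroblastic islands, was among the higher genes (0.71 ± 0.13), as was Lyl1, a factor related to Tal1 (0.56 ± 0.17).

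Erythropoietin signalling gave a mixed list. Of 8 genes tested, 5 were higher and 2 lower in members, with a median log2 difference of 0.49, and without Havcr2fl/fl replicate 2 there were 3 higher and 2 lower of 10. With cells thinned to 2000 UMIs 1 of 7 was higher and 1 lower, near the 789 and 693 of 4708 over all genes. Without Havcr2fl/fl;E8icre/+ replicate 2, 3 of 13 were higher, against 1499 of 9012 over all genes. In 2 further settings 3 of 8 were higher: without a block for the library (1493 of 7450 over all genes) and with a minimum of 10 cells (1545 of 6995). Epor, the erythropoietin receptor, had 95.2, 75.4, 93.3 and 101 CPM in early cells and 130.1, 126, 77.3 and 112 CPM in members, so that Havcr2fl/fl replicate 1, with 15 cells, went down and the other 3 up. The fitted difference of 0.50 ± 0.13 (SE, adjusted p = 0.00721) passed, but no longer did when Havcr2fl/fl;E8icre/+ replicate 2 was left out (adjusted p = 0.0547), when cells were thinned to 2000 UMIs (adjusted p = 0.137) or when the 15 members of Havcr2fl/fl replicate 1 were brought in by a minimum of 10 cells (0.32, adjusted p = 0.0528). In late cells Epor was higher by 1.58 ± 0.14 (SE, adjusted p = 1.95e-07). Bcl2l1, a survival gene downstream of the receptor, had 22.4, 23.4, 15.9 and 11.7 CPM in members and 612, 436, 548 and 377 CPM in late cells, with differences of 2.38 ± 0.21 and 5.35 ± 0.17 (adjusted p = 1.01e-06 and 3.85e-11). The kinase gene Pim1 was higher by 1.51 and then 3.68, and Cish, a feedback inhibitor of the pathway, by 1.38 and 3.10. Stat5a and Stat5b, the transducers, were the 2 lower genes, at -1.32 and -0.83 in the first step.

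Cell cycle genes were high in intermediate erythroblasts. Of 23 S phase genes 21 were higher and 0 lower than in early cells (median log2 difference 0.98), and of 21 G2 and M phase genes 20 were higher and 0 lower (median 0.99). The lists then parted: in late cells 5 S phase genes were higher and 14 lower (median -0.48; 1 and 13 of 22 with thinned cells, 3 higher without a block for the library or without Havcr2fl/fl;E8icre/+ replicate 1), while all 21 G2 and M phase genes were higher (median 1.31). Mcm3, a subunit of the replicative helicase, had 263, 225, 253 and 289 CPM in early cells, 363, 318, 250.1 and 419 CPM in members and 73.2, 73.3, 106 and 104 CPM in late cells. It was up at the first step by 0.64 ± 0.11 (SE, adjusted p = 0.000345), although not in Havcr2fl/fl replicate 1, and down at the second, at -1.51 ± 0.13 (SE, adjusted p = 1.48e-07), and there all late values lay below all others. Rrm2, a ribonucleotide reductase subunit, was higher at both steps (1.84 ± 0.15 and 0.67 ± 0.15), and Pcna at the first (1.21 ± 0.13) with -0.18 ± 0.14 at the second (adjusted p = 0.269). Mki67, which coats mitotic chromosomes, had 831, 734, 829 and 855 CPM in early cells and 2254, 2315, 1703 and 1941 CPM in members (log2 1.47 ± 0.19), and Ube2c, of the mitotic exit machinery, 322, 255, 297 and 386 and 564, 677, 753 and 871 CPM (log2 1.22 ± 0.16). Cdc20, which works with Ube2c, was the 1 gene of its list without a first call (0.28 ± 0.15, adjusted p = 0.149).

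G1 regulators moved in both directions. Of 12 tested, 6 were higher and 3 lower in members, with a median log2 difference of 0.80. Ccnd3, the D-type cyclin of late erythroid divisions, had 109, 98.7, 139.9 and 164 CPM in early cells, 395, 523, 371 and 679 CPM in members and 195, 169, 267 and 245 CPM in late cells. The members were thus above both neighboring stages in all 4 libraries, with 2.24 ± 0.13 (SE, adjusted p = 1.56e-08) for the first step and -0.82 ± 0.14 (SE, adjusted p = 0.000111) for the second. Ccnd1, Ccnd2 and Cdk6 were lower, at -1.87, -1.65 and -1.41, and Ccnd2 was at 86.7, 28.0, 68.2 and 6.61 CPM, again lowest in Havcr2fl/fl replicate 2. The cycle inhibitor Cdkn1b had 58.3, 60.7, 29.6 and 65.3 CPM in members and 735, 844, 579 and 752 CPM in late cells, so that its larger difference was the second (1.16 ± 0.14 and then 4.16 ± 0.14).

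Histone genes were higher at both steps, at levels that differed between the mice. Replication-dependent histone messages are made in S phase and mostly lack the poly(A) tail that this 3′ chemistry primes, so that only their polyadenylated fraction is counted, and near-identical copies can share reads. Of 57 tested, 52 were higher and 0 lower in members (median log2 difference 1.51), and 55 were higher again in late cells (median 1.71). Without a block for the library 32 of 57 were higher at the first step, and with thinned cells 36 of 48 at the second. The list summed to 6584, 13686, 10129 and 6860.4 CPM in early cells and 14008, 46755, 24848 and 15825 CPM in members, with Havcr2fl/fl;E8icre/+ replicate 2 highest in the members. Hist1h2ab, named with the rule, had 164, 347, 266 and 143 CPM in early cells and 462, 1825, 1053 and 422 CPM in members, so that the lowest member value lay above the highest early one. Its order of libraries, with Havcr2fl/fl;E8icre/+ replicate 2 and Havcr2fl/fl replicate 1 high, was the same in late cells, at 1253, 4154, 2294 and 1174 CPM.

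Ribosomal protein genes separated intermediate from late cells and, with 1 exception, did not pass between early and intermediate cells. Of 82 tested, 0 were higher and 1 lower in members than in early cells, with a median log2 difference of 0.01, and 80 were lower in late cells than in members, with a median of -1.26. The list summed to 262733, 266397, 319160 and 279204 CPM in members and 66564, 61687, 113186 and 109087 CPM in late cells. The 1 lower gene of the first step was Rpl7l1, a ribosome assembly factor named for its likeness to a ribosomal protein. With cells thinned to 2000 UMIs 6 of 81 were lower at the first step.

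The genes of nuclear condensation and organelle clearance had begun to differ. Of 19 tested, 12 were higher and 3 lower in members (median log2 difference 0.55), and 14 were higher and 3 lower at the second step (median 1.90). Without Havcr2fl/fl replicate 2 the first counts were 10 higher and 1 lower of 20, and with cells thinned to 2000 UMIs 6 higher and 1 lower of 17. Xpo7, a nuclear exporter needed for condensation of the erythroid nucleus (chr14:70654246-70766628, minus strand), had 6.64, 5.98, 17.2 and 4.19 CPM in early cells and 40.4, 114, 6.82 and 22.0 CPM in members, where Havcr2fl/fl;E8icre/+ replicate 2 was highest and Havcr2fl/fl replicate 1 lay below its early value. Late cells had 3760.1, 3545, 3171 and 2624 CPM, and the differences were 2.98 ± 0.41 (SE, adjusted p = 4.89e-05) and 6.49 ± 0.43 (SE, adjusted p = 9.02e-09). Ube2o, which clears ribosomal proteins, was higher by 2.15 and then 4.33, and Bnip3l, the receptor for removal of mitochondria, by 1.22 and 3.21. Trim58, a ubiquitin ligase of enucleation, had 8.97, 7.78, 11.4 and 5.83 CPM in members and 114 to 227 CPM in late cells.

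Stress response genes included those that sense heme. Of 11 tested, 7 were higher and 1 lower in members (median log2 difference 0.89). Eif2ak1, the kinase that halts translation when heme is short, had 55.8, 52.2, 62.8 and 74.2 CPM in early cells and 136, 179, 102 and 187 CPM in members, higher by 1.56 ± 0.14 (SE, adjusted p = 1.14e-06). Ppp1r15a, which reverses the phosphorylation that this kinase makes, had 130.1, 159, 56.8 and 106 CPM and was higher by 2.74 ± 0.21 (SE, adjusted p = 1.9e-07), and Atf4 and Ddit3, transcription factors downstream of the kinase, by 0.89 and 1.41. The chaperone gene Hspa8 was the lower one (-0.54 ± 0.15). With cells thinned to 2000 UMIs the list had 4 higher and 2 lower of 9.

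Interferon-response genes and MHC class I did not move as one list. Of 16 tested, 2 were higher and 7 lower in members (median log2 difference -0.24), and 1 higher and 4 lower without Havcr2fl/fl replicate 2. In late cells 10 were higher and 3 lower than in members, and 6 of 15 were higher with thinned cells or the stricter cell filter. The higher genes were Isg15, a ubiquitin-like protein, at 417, 420.4, 309 and 199.7 CPM in members (1.37 ± 0.20, SE, adjusted p = 0.000104), and the class I light chain B2m (0.45 ± 0.16, adjusted p = 0.035). The immunoproteasome subunit Psmb8 had 389.8, 372, 370.5 and 368 CPM in early cells and 226, 135, 271 and 57.1 CPM in members, lower in all 4 libraries and lowest in Havcr2fl/fl replicate 2 (-1.56 ± 0.29, SE, adjusted p = 0.000762). Irf1 and Gbp2 were lower, at -0.90 and -1.01. H2-K1 and H2-D1, whose products hold peptides at the surface, were not called at the first step (-0.09 ± 0.15 and 0.35 ± 0.14, adjusted p = 0.661 and 0.0523).

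Of the TIM-3 ligands, Lgals9 (galectin-9) was the 1 of 3 tested that changed. It had 1133, 793, 1088 and 845 CPM in early cells, 602, 350.3, 450.2 and 182 CPM in members and 157, 90.3, 126 and 108 CPM in late cells. Each library went down at each step, with differences of -1.32 ± 0.20 (SE, adjusted p = 0.000151) and -1.04 ± 0.22 (SE, adjusted p = 0.000793), and Havcr2fl/fl replicate 2 was lowest among the members. A Lgals9 UMI was present in 77.1, 50, 53.3 and 55.9% of members, 100, 99.4, 100 and 99.4% of the deeper early cells and 25.6, 24.2, 28.7 and 19.3% of the shallower Tc. Hmgb1, a nuclear protein that also binds TIM-3, had 1573, 1968, 2024 and 1831 CPM in members and a first difference of 0.15 ± 0.14 (adjusted p = 0.408). Havcr2 itself (chr11:46454935-46481255, plus strand) had 1 UMI in 1 of 381 members of Havcr2fl/fl replicate 2, and 0 in the other libraries, which allows a share of cells with a Havcr2 UMI, not of cells that express it, of up to 8.57%, 8.82% and 20%, or 4.48, 4.67 and 6.82 CPM, from 3 counts and counting error alone. Tc held a Havcr2 UMI in 16.6, 6.13, 15.6 and 20.7% of cells. In Havcr2fl/fl;E8icre/+ replicate 2 and Havcr2fl/fl replicate 1 the limit lay above the Tc share, so a difference was not detectable there, and in Havcr2fl/fl replicate 2 the members had 0.262%.

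Among single genes, those that differed most between early and intermediate cells were named by size. Beside Alas2, Slc4a1 and Tmod1, they included Fn3k, a kinase that repairs glycated protein, at 94.2, 84.1, 52.3 and 76.6 CPM in members and 0.696 to 2.79 CPM in early cells (5.65 ± 0.29, SE, adjusted p = 8.06e-09). The apolipoprotein L genes Apol11a and Apol11b had 133, 174, 91.0 and 79.9 CPM and 625, 562, 500.2 and 395 CPM and were higher by 5.75 and 4.88. Slc6a9, which takes up glycine, the amino acid that Alas2 uses, had 59.8, 84.1, 38.7 and 27.8 CPM in members (4.78 ± 0.30, SE, adjusted p = 2.9e-08). The phosphatase Cdc25b, which opens mitosis, was higher by 4.55 and the acid phosphatase Acp5 by 4.41. Retnlg, a neutrophil gene, was also among them (5.86 ± 1.06, SE, adjusted p = 0.000577), with 1.49, 403, 798 and 50.5 CPM, and it was high in the libraries with neutrophil RNA.

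The genes named as falling most at the first step included some of ribosome assembly, a group that was not tested as a list. Rrp9, Mdn1 and Heatr1, which process ribosomal RNA or mature its particles, were lower, at -1.87, -1.78 and -1.64, and Cd3eap, a subunit of RNA polymerase I despite its symbol, at -1.65. Srm, spermidine synthase, had 219, 204, 202 and 209 CPM in early cells and 121, 62.3, 86.4 and 33.4 CPM in members (-1.72 ± 0.27, SE, adjusted p = 0.00015). Gcsh, a carrier of the mitochondrial glycine cleavage system, differed most among the genes so named, with 58.9, 64.0, 47.0 and 52.7 CPM and 37.4, 10.9, 22.7 and 6.02 CPM (-2.06 ± 0.37, SE, adjusted p = 0.000491). The remaining ones were Kit, Ccnd2, Cmtm7 and Prelid2, and every gene of this group was lower in 4 of 4 libraries. Cd3eap was not called with DESeq2 (adjusted p = 0.184), nor Ccnd2 without a block for the library (adjusted p = 0.0556).

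The genes named by size between intermediate and late cells were not those named at the first step. Alas2, Slc4a1 and Tmod1 were nevertheless higher again in late cells, and Xpo7 had also passed at the first step. Xpo7, Ifit1, the ribosome-bound nuclease gene Slfn14 and Reln, known from neurons as reelin, were among the 10 that were most increased, with second differences of 6.49, 5.84, 6.41 and 5.72. The others were Tcp11l2, Sowaha, Tmcc2, Fam214b, Ccdc92b and Tmem140. On the falling side Hspe1, a mitochondrial chaperonin, had 605, 448, 539 and 362 CPM in members and 26.5, 10.2, 39.0 and 36.5 CPM in late cells (-3.58 ± 0.27, SE, adjusted p = 4.5e-08), and Cdk4, the partner of D-type cyclins, 232, 190.0, 271 and 259.8 and 16.3, 2.26, 18.7 and 15.5 CPM (-3.65 ± 0.26, SE, adjusted p = 2.01e-08). Gar1 and Ftsj3, of ribosomal RNA modification, were lower, at -3.49 and -3.51.

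Intermediate erythroblasts were not uniform. They fell into bins of 1 to 2%, 2 to 5%, 5 to 10% and 10 to 20% hemoglobin as 17.1%, 22.9%, 20% and 40.0% of members in Havcr2fl/fl;E8icre/+ replicate 1 and as 8.82%, 23.5%, 17.6% and 50% in replicate 2. They did so as 6.67%, 40.0%, 26.7% and 26.7% in Havcr2fl/fl replicate 1 and as 31.5%, 33.1%, 19.7% and 15.7% in replicate 2. Most members of replicate 2 thus lay under 5%, and all bins outside that library held fewer than 20 cells. In its 120, 126, 75 and 60 cells Alas2 was at 101, 220.5, 449 and 802 CPM from the lowest to the highest bin. Slc4a1 was at 412, 687, 833 and 1339.7 CPM and Hemgn at 689, 827, 836 and 1442 CPM. All 3 genes were highest in the highest bin. The ribosomal sum went from 286916 CPM in the lowest bin to 247471 CPM in the highest, and Bcl11a was at 170.2, 131, 118 and 77.7 CPM. Median depth went down from 15880 to 8413.5 UMIs per cell over the same bins.

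The same rise of Alas2 was seen in the other libraries, at 151, 198, 566 and 847 CPM in Havcr2fl/fl;E8icre/+ replicate 1, 180.0, 263, 499.7 and 1051 CPM in replicate 2 and 0, 158, 368 and 937 CPM in Havcr2fl/fl replicate 1. Kit did not follow the bins. It was at 53.3, 44.4, 80.9 and 53.9 CPM in Havcr2fl/fl;E8icre/+ replicate 1 and at 3.53, 2.30, 11.7 and 0 CPM in Havcr2fl/fl replicate 2, so that the gap between these libraries was present in every bin. In the other libraries, with 1 to 17 cells a bin, it was at 0, 30.7, 0 and 29.9 CPM (Havcr2fl/fl;E8icre/+ replicate 2) and 0, 0, 113 and 0 CPM (Havcr2fl/fl replicate 1), with bins at 0 among them.

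**Figure D4:**
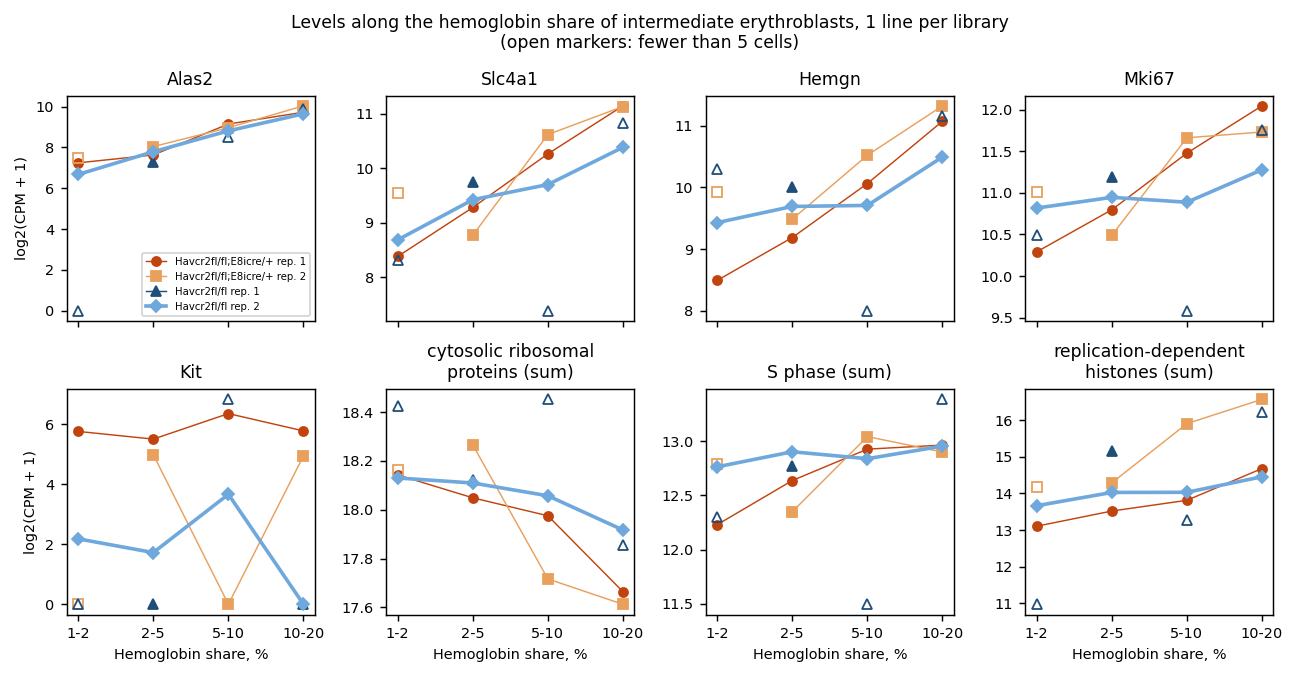
Level, as log2(CPM + 1), of 5 genes and 3 list sums in 4 bins of hemoglobin share within the intermediate erythroblasts, 1 line per library, with open unconnected points for bins of fewer than 5 cells. Alas2 climbs with hemoglobin in all libraries, and Kit in Havcr2fl/fl replicate 2 (3.53, 2.30, 11.7 and 0 CPM) lies under that of Havcr2fl/fl;E8icre/+ replicate 1 in every bin.

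The donor genotypes were compared in the intermediate erythroblasts, with 2 mice each. They were 3.85% (95% exact binomial interval 2.70% to 5.32%) and 5.24% (3.65% to 7.24%) of the cells without a Cd3 UMI in the Havcr2fl/fl;E8icre/+ libraries. In the Havcr2fl/fl libraries they were 4.39% (2.48% to 7.13%) and 16.2% (14.7% to 17.7%). The means were 4.55% ± 0.979 and 10.3% ± 8.33 (SD, n = 2 each), the exact two-sided permutation test gave p = 0.667, and the smallest p that 2 mice against 2 allow is 0.33. The 3 libraries other than Havcr2fl/fl replicate 2 lay within the intervals of one another, and the intervals cover counting error only. As shares of all cells past the filter the means were 1.18% and 4.91%.

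**Figure D5:**
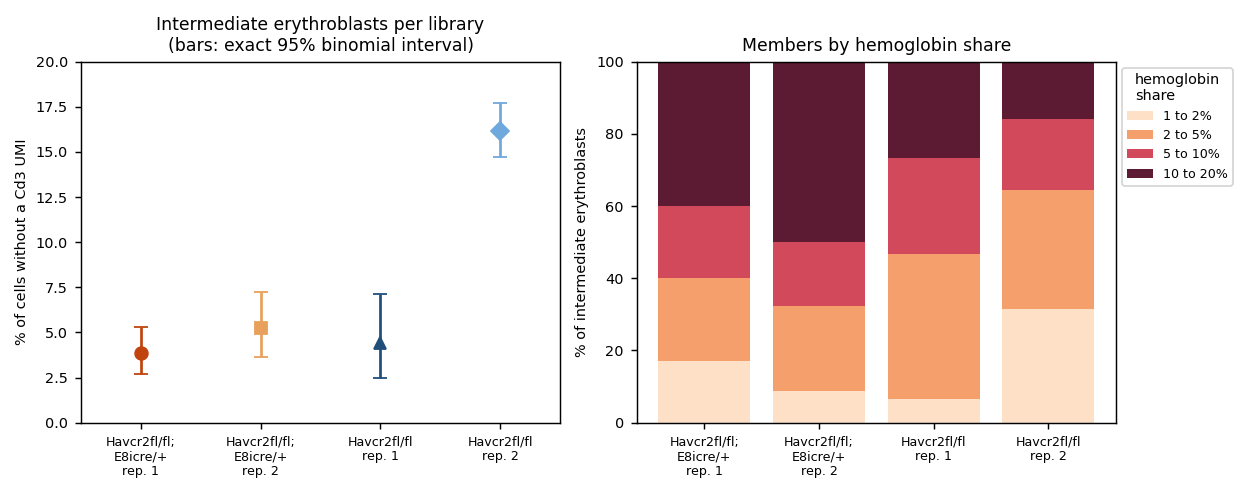
Left, intermediate erythroblasts as percent of cells without a Cd3 UMI, 1 point per library with its exact 95% binomial interval. Right, percent of the members of each library in 4 bins of hemoglobin share, where Havcr2fl/fl replicate 2 stands apart with 16.2% on the left and 31.5% of its members in the lowest bin on the right.

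Gene levels of the members did not separate the genotypes in the main edgeR fit, which used all 4 libraries and a filter on low counts. On the same 4 libraries without that filter edgeR did call genes, as counted below. Of 6152 genes 0 (0.00%) were higher and 0 (0.00%) lower in Havcr2fl/fl;E8icre/+ than in Havcr2fl/fl members with edgeR, with 229 at an unadjusted p under 0.05. DESeq2 called 3 of the same 6152 genes higher. Without Havcr2fl/fl replicate 1 there were 99 higher and 16 lower, without Havcr2fl/fl;E8icre/+ replicate 1 8 and 4, without Havcr2fl/fl replicate 2 0 and 2, and without a filter on low counts 20 and 10. The log2 differences of Alas2 and Slc4a1 were 0.57 ± 0.27 and 0.64 ± 0.26 (SE), and both genes were higher in each Havcr2fl/fl;E8icre/+ library than in either Havcr2fl/fl library (adjusted p = 0.999 each). Kit differed by 1.38 ± 1.04, Gata2 by 1.38 ± 0.75 and Epor by 0.32 ± 0.24. Gata1, Tfrc, Hemgn, Mgst3 and Hist1h2ab differed by 0.00 ± 0.30, -0.07 ± 0.26, 0.33 ± 0.31, -0.17 ± 0.35 and 0.60 ± 0.68. Their SEs show what 2 mice per genotype could resolve, and an adjusted p above the threshold does not show that the genotypes were alike. Without Havcr2fl/fl replicate 1, which leaves 1 library in that group, Kit (3.10, adjusted p = 5.79e-06), Gata2 (2.38, adjusted p = 0.0135) and Hist1h2ab (1.46, adjusted p = 0.0118) passed the edgeR test. Kit turned to -0.28 without Havcr2fl/fl replicate 2, and Hist1h2ab to -0.86 without Havcr2fl/fl;E8icre/+ replicate 2. The different spread of members over hemoglobin share cannot be told apart from genotype in this comparison.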

How the data were processed

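The authors deposited UMI counts per gene and barcode from 10x Genomics 3′ libraries, made with Cell Ranger 6.1.2 on mm10 per the labels, for 32285 genes and 1 H-2Kb Ab tag, with no normalization. Counts were read with Python 3.11.15 and scanpy 1.11.5 and fitted with R 4.3.3, edgeR 4.0.16 and DESeq2 1.42.0. The members and all gene lists were chosen with earlier results of these data known. Cells are not replicates, so UMIs were summed per library (1 mouse each) and stage, and the p-values of the main fits rest on the spread between mice. Stages were compared with edgeR's quasi-likelihood test (TMM scaling, filterByExpr, library as a block, 3 stages in 1 fit, Benjamini-Hochberg adjustment over all genes tested, threshold 0.05) after removal of the 8 genes that the rule uses. Genotypes were compared in the same way without a block, with all genes. Sums of fewer than 20 cells did not enter the stage fit.

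Genes were named per contrast as the 10 most increased and 10 most decreased past the threshold, with a mean of at least 50 CPM in the higher stage and the same direction in every library, besides examples from the lists and a set always named. Doublets were kept: Scrublet marked 125 cells, 9 of them members, and removal of 438 cells by expected rate (0.8% per 1000 barcodes), with 22 members, was an alternative. The 22 members were 4, 0, 0 and 18 by library. It thus removed no member of Havcr2fl/fl;E8icre/+ replicate 2 or Havcr2fl/fl replicate 1, where neutrophil RNA was highest. Alternatives also covered scaling, low counts, cell limits, Klf1 and hemoglobin limits, thinning to 2000 UMIs and each library left out. The fits were checked on simulated counts with 200 changed genes. At a log2 change of 1 the stage fit recovered 84.5% of them at the first step and 66.5% at the second. The genotype fit recovered 9%, so it would miss most changes of that size. At a log2 change of 2 the shares were 100%, 94.5% and 89.5%. Sequences are RefSeq's on GRCm38.p6, and gene positions are from GENCODE on GRCm38. Some genes of the lists are not reported here by name.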

Additional observations from a re-analysis of the deposited data

How the results depend on the processing

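Most values kept their direction and their side of the threshold under the alternatives run. Thinning cells to 2000 UMIs left 789 genes higher and 693 lower in intermediate than early cells and 1087 higher and 1149 lower in late than intermediate cells, of 4708 tested, which is fewer genes than in the full data. Cells under 2000 UMIs were left out, 80 of 174, 65 of 241, 14 of 120 and 192 of 330 late cells among them and at most 3 members or early cells of a library, so that the second step also differs in the late cells used. These settings left 5 of 14 iron, 1 of 7 erythropoietin and 6 of 17 condensation genes higher at the first step, and 1 of 22 S phase, 6 of 15 interferon and 36 of 48 histone genes at the second. Leaving out each library in turn gave 1114 to 1813 higher and 493 to 1490 lower genes at the first step, with the low ends without Havcr2fl/fl replicate 2. DESeq2 size factors in edgeR gave 1523 higher and 1799 lower genes there, so that 45.8% of calls were higher against 55.5% with TMM, as the median moved from -0.01 to -0.10. A minimum of 10 cells, chosen after the data were seen, brought in the 15 members of Havcr2fl/fl replicate 1 and gave 1545 and 1916 (44.6% higher), and the stricter cell filter gave 1474 and 1621 (47.6% higher). Without a block for the library in the stage fit 1493 and 1069 genes were called, and 32 of 57 histone genes.

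Between genotypes DESeq2 called 3 genes higher, and edgeR without a filter on low counts called 20 higher and 10 lower. Leaving out each library gave 0 to 99 higher and 0 to 16 lower genes, with the high ends without Havcr2fl/fl replicate 1, when 1 Havcr2fl/fl library was left, assumed to vary like the other group. The causes were not tested. Equal replicate numbers were not taken as pairs, since the deviations of same-numbered libraries correlated at 0.06, and with them as a replicate block 0 genes were called (295 at an unadjusted p under 0.05) and Gata1 changed sign to -0.0183. The log2 ratio of the share of members (Havcr2fl/fl;E8icre/+ over Havcr2fl/fl) was -1.18 and ranged from -1.83 to 0.0519 with 1 library left out, the latter without Havcr2fl/fl replicate 2. As a share of all cells past the filter it was -2.06 (1.18% against 4.91%). Kit, Gata2 and Hist1h2ab passed between genotypes without Havcr2fl/fl replicate 1 (adjusted p = 5.79e-06, 0.0135 and 0.0118). With 1 library left out Kit ranged from -0.28 to 3.10, Gata2 from 0.05 to 2.38, Gata1 from -0.49 to 0.38, Tfrc from -0.23 to 0.11, Hemgn from -0.12 to 0.68, Mgst3 from -0.69 to 0.22 and Hist1h2ab from -0.86 to 1.46. Gata1 was -0.0434 without a filter on low counts and -0.0167 with doublets removed. In members from 5% hemoglobin, Tfrc was 0.54, Mgst3 0.31, Hemgn 1.12, Slc4a1 1.298, Epor 0.81, Hist1h2ab 1.41, Kit 0.19 and Gata2 0.02, none of which passed. The small number of members, 15 to 35, limits what 3 libraries can show, and genes under a few UMIs per library are not resolved there.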

Other observations

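RNA of other cell types in the intermediate erythroblasts differed between libraries, and its part in the results was not tested. Of the 6 neutrophil markers, Retnlg, S100a8 and S100a9 were called higher in members than in early cells, and Camp and Ngp were not (0.70 ± 1.61 and 1.26 ± 1.18, SE, on the log2 scale). S100a8 had 112, 4.59, 87.0 and 34.0 CPM in early cells, 235, 3207, 5584 and 132 CPM in members and 10.2, 24.8, 8499 and 14.1 CPM in late cells, so that the same library, Havcr2fl/fl replicate 1, was highest in members and late cells. The 8 monocyte and macrophage markers summed to 173, 81.0, 123 and 23.7 CPM in members, most of it Lyz2 in Havcr2fl/fl;E8icre/+ replicate 1. The 6 basophil and mast cell markers summed to 7.47, 17.1, 20.5 and 374 CPM, with Prss34 most abundant in Havcr2fl/fl replicate 2, where 38 members held a UMI of the list. The 8 B and plasma cell markers summed to 56.8, 60.7, 22.7 and 201 CPM, with Igkc the most abundant, and 311 of 381 members of Havcr2fl/fl replicate 2 held a UMI of the list. In that library the list summed to 2203 CPM in early cells, where 1004 of 1182 held a UMI of it, and to 1174 CPM in late cells. Of the 3 of these markers tested, Ighm and Jchain were called lower in members than in early cells (-2.39 ± 0.78 and -2.22 ± 0.68, SE), Igkc was not (-1.17 ± 0.85), and all 3 were called higher in late cells than in members (3.95 ± 0.93, 4.28 ± 0.81 and 3.92 ± 0.87).

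Markers of less mature or related cells were low. The 7 megakaryocyte markers summed to 22.4, 21.8, 31.8 and 23.1 CPM in members, and Vwf, the von Willebrand factor gene, was called higher than in early cells (1.67 ± 0.36) at 8.97, 7.78, 13.6 and 9.52 CPM. The 7 stem and progenitor cell markers summed to 28.4, 17.1, 45.5 and 6.99 CPM, and Muc13 was called lower (-1.60 ± 0.38). The 6 granulocyte-monocyte progenitor markers summed to 12, 7.78, 15.9 and 61.4 CPM, with none called. Il3 and Hoxb8, which WEHI-3B cells are known to express, had 0 UMIs in the members of every library.

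The 3 genes that DESeq2 called between genotypes were singled out after their values were seen. Xlr, an X-linked lymphocyte-regulated gene (chrX:53777118-53797706), had 19.4 and 24.9 CPM in the members of the Havcr2fl/fl;E8icre/+ libraries and was at 0 in both Havcr2fl/fl libraries, and early cells had 29.0 and 39.5 CPM against 0. Aldh1l1, a folate enzyme gene (chr6:90486427-90600203), had 22.4 and 15.6 CPM in members of Havcr2fl/fl;E8icre/+ and 0 in Havcr2fl/fl, and early cells had 25, 17.4, 0 and 0.147 CPM. Ifi27l2a, an interferon-induced gene, had 23.9, 56.1, 0 and 1.17 CPM in members, but 22.8 CPM in early and 23.4 CPM in late cells of Havcr2fl/fl replicate 1, so that its genotypes overlapped in those stages. The adjusted p in members was 0.00904 for Xlr, 0.0197 for Aldh1l1 and 0.000702 for Ifi27l2a with DESeq2. The main edgeR fit used the same filter on low counts and tested the same 6152 genes as DESeq2, these 3 among them. Its smallest adjusted p over all genes was 0.803, so none of the 3 passed there. Without the filter on low counts edgeR also called these 3 genes higher. That fit also called Prss34 lower (edgeR adjusted p = 1.94e-24), a basophil marker whose list was high in Havcr2fl/fl replicate 2 and not in replicate 1. Its calls therefore do not by themselves show that both mice of a genotype agreed.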
